A study of Mus musculus with 18 samples.

Results

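The genes described here encode parts of motile cilia. They were taken by name from the 4 deposited expression tables and comprise the axonemal dynein heavy chains (names starting with Dnah), the radial spoke proteins (Rsph), the Cfap proteins, Drc1, the tektins, Spag6, Spag16 and Spag17, Ak7, Hydin, and the transcription factors Foxj1, Rfx2 and Rfx3. The names Dnai1 and Dnai2 were also sought, but all 4 tables list these genes as Dnaic1 and Dnaic2, so neither met the rule. Of 56589 names found in any table, 71 met this rule, and 50 of the 71 were named in all 4 tables. The other 21 were named in the cortical and Rnf2 tables, which use newer symbols for many genes. By role, the 71 were 3 transcription factors, 15 dynein heavy chains, 8 radial spoke proteins, 10 proteins of the central apparatus, Drc1 with Ak7, 5 tektins, 26 other Cfap proteins and 2 antisense transcripts that start with the same letters (Dnah2os and Spag17os).

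RNA-seq of tissue taken at postnatal day 0, or of cultures begun from it, was compared between genotypes. Control mice were set against mice that had lost the CxxC zinc finger of KDM2B, or RNF2 (RING1B), in the dorsal telencephalon. The Kdm2b hippocampus was measured in 3 control and 3 cKO libraries, and the Kdm2b cortex, the neurospheres and the Rnf2 hippocampus in 2 and 2 each. Kdm2b cKO mice, Kdm2b Emx1-ΔCxxC, were Kdm2b fl/fl with Emx1-Cre and lost exon 13, and their controls were Kdm2b fl/+ or Kdm2b fl/fl. Rnf2 cKO mice were Rnf2 fl/fl with Emx1-Cre, and their controls were Rnf2 fl/+ or Rnf2 fl/fl. The 2 control genotypes cannot be told apart in the labels, so floxed alleles are common to every group. Emx1-Cre acts in dorsal telencephalic progenitors and their descendants, so other cells of a dissected hippocampus kept both genes. Neurospheres are free-floating cultures of progenitors, here grown from hippocampi of the same age in FGF2 and EGF. They were sequenced after 3 generations in culture, so they do not match the tissue in time. The labels do not say whether the libraries of a group came from separate animals, so p values measure the spread between these libraries.

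A motile cilium is built on an axoneme of doublet microtubules around a central pair. Dynein arms on the doublets drive the beat, radial spokes carry signals between the central pair and the arms, the nexin-dynein regulatory complex links neighboring doublets, and tektins run inside the doublet wall. FOXJ1 is the forkhead factor that switches on the genes of motile cilia, and RFX2 and RFX3 bind X-box motifs in the promoters of ciliary genes. In the brain, motile cilia are borne by ependymal cells, which line the ventricles, and by the choroid plexus epithelium, whereas neurons and neural progenitors bear a primary cilium that lacks arms, spokes and central pair.

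Because RFX and forkhead factors act at promoters, the promoter windows of the 5 members called in the Kdm2b hippocampus that have a listed window are shown (the 6th called member, Rsph1, had none). Each has 300 bases, from 250 before to 50 after the start site, read 5′ to 3′ on the strand of the gene (RefSeq, GRCm38.p6). Capitals mark the short RFX motif GTTGCC, which makes up one side of an X-box, or its reverse complement GGCAAC, and the forkhead motif TGTTTAC or its reverse complement GTAAACA.
Dnah10, chr5:124724835-124725134, plus strand: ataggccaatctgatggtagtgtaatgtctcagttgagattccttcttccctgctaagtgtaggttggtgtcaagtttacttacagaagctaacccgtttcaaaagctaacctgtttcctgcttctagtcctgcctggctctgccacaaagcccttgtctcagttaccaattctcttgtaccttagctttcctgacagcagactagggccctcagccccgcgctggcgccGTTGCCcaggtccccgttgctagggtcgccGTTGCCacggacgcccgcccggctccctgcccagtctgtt
Drc1, chr5:30281143-30281442, plus strand: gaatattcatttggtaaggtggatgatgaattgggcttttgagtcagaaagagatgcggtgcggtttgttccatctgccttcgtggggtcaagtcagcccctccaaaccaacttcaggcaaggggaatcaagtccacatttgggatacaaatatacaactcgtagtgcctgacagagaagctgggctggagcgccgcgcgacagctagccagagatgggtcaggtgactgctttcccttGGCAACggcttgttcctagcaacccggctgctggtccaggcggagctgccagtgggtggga
Ak7, chr12:105705732-105706031, plus strand: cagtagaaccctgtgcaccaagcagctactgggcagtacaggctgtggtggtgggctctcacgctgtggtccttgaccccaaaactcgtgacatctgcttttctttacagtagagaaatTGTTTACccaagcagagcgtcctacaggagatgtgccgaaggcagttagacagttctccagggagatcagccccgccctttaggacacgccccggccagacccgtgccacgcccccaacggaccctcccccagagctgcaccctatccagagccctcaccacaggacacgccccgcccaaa
Cfap57, chr4:118620736-118621035, minus strand: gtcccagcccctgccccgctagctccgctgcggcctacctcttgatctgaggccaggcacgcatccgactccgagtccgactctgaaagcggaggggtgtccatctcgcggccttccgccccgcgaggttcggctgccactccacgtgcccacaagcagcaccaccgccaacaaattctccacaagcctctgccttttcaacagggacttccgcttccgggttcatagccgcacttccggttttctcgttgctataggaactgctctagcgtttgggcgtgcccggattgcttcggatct
Tekt2, chr4:126325639-126325938, minus strand: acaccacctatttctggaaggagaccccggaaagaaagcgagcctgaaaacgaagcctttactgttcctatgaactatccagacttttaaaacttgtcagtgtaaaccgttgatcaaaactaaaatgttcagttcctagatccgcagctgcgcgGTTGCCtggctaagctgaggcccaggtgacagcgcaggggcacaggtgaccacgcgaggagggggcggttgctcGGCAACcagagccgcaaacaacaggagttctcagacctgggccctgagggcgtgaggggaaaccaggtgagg

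Dnah10, an inner arm dynein heavy chain, had 2 RFX motifs, Drc1 had 1, the first of 3 listed windows of Tekt2 had 2, Ak7 had the forkhead motif and no RFX motif, and Cfap57 had neither. A window was listed for 57 of the 71 members, and none for Foxj1. GTTGCC was found on either strand in 25 of these 57 first windows, or 43.9%, against 12.7% of the first windows of 27025 genes. TGTTTAC was found in 5, or 8.77%, against 3.55%. A full X-box, taken as GTTNCC followed after 0 to 3 bases by GGNAAC, was found in 1, that of Cfap298, against 0.822% of all first windows. Of the 36 RFX motifs in member windows, 31 (86.1%) began no more than 150 bases before the start site or after it, against 69.6% of those in all windows. A match describes the letters of the window and does not show that a factor binds there. Members tested in the Kdm2b hippocampus had a median log2 fold change of -0.07 where the window held an RFX motif (17 members) and of -0.19 where it did not (20 members).

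Depth could be recovered where the tables give gene lengths and was 18463270 to 21884591 reads per cortical and 14654894 to 16334420 per Rnf2 library, and it is unknown for the Kdm2b hippocampus and the neurospheres. Neurosphere control library 1 stood apart, with 29.3% of its FPKM in entries that name no gene. Kdm2b was at 28.1 to 31.9 FPKM (fragments counted per transcript, scaled to transcript length and library size) in control and 26.2 to 28.2 in cKO hippocampi, a gene-level value that cannot show the loss of exon 13, and Rnf2 at 30.8 to 32.3 FPKM in its controls and 27.8 to 28.5 in its cKO, and since the deleted exons are not given in the sources used here, this gene-level value does not check the label. Xist was at 153.8 FPKM in Kdm2b hippocampus cKO library 1 and at most at 0.0732 in the other hippocampal libraries of that table, at 0.361 in neurosphere cKO library 1 against 140.0 to 175.2 in the other neurospheres, and at 0.0177 in cortical control library 1 against 132.5 to 189.0 in the other cortices, so each count of calls was also taken without each library. The 10 hippocampal marker genes summed to at least 245.7 FPKM in control hippocampi of the Kdm2b table and to at least 30.7 in control cortices.

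Motile cilium genes were higher in both hippocampal tables than in cortex or neurospheres. This was examined in 47 members with an entry of their own in all 4 tables. The tables were normalized separately, so their levels are set side by side as a description, with no test. The median member was at 1.61 to 2.10 FPKM in the 3 control libraries of the Kdm2b hippocampus, at 0.747 and 1.07 in those of the Rnf2 hippocampus, at 0.148 and 0.167 in control cortices and at 0.0323 and 0.0582 in control neurospheres. Over the 20955 names shared by the tables, the median was 1.42 to 1.45 FPKM in the Kdm2b hippocampus controls, 0.914 and 0.942 in the Rnf2 hippocampus, 0.638 and 0.658 in cortex and 0.528 and 0.556 in neurospheres. The median member thus lay above the median gene in the Kdm2b hippocampus, on either side of it in the Rnf2 hippocampus, and below it elsewhere. By rank among the shared names, the median percentile of the members was 50.8 to 53.1 in Kdm2b hippocampus controls. It was 48.6 and 51.1 in Rnf2 hippocampus controls, 41.5 and 41.7 in control cortices and 39.8 and 41.3 in control neurospheres.

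**Figure D1:**
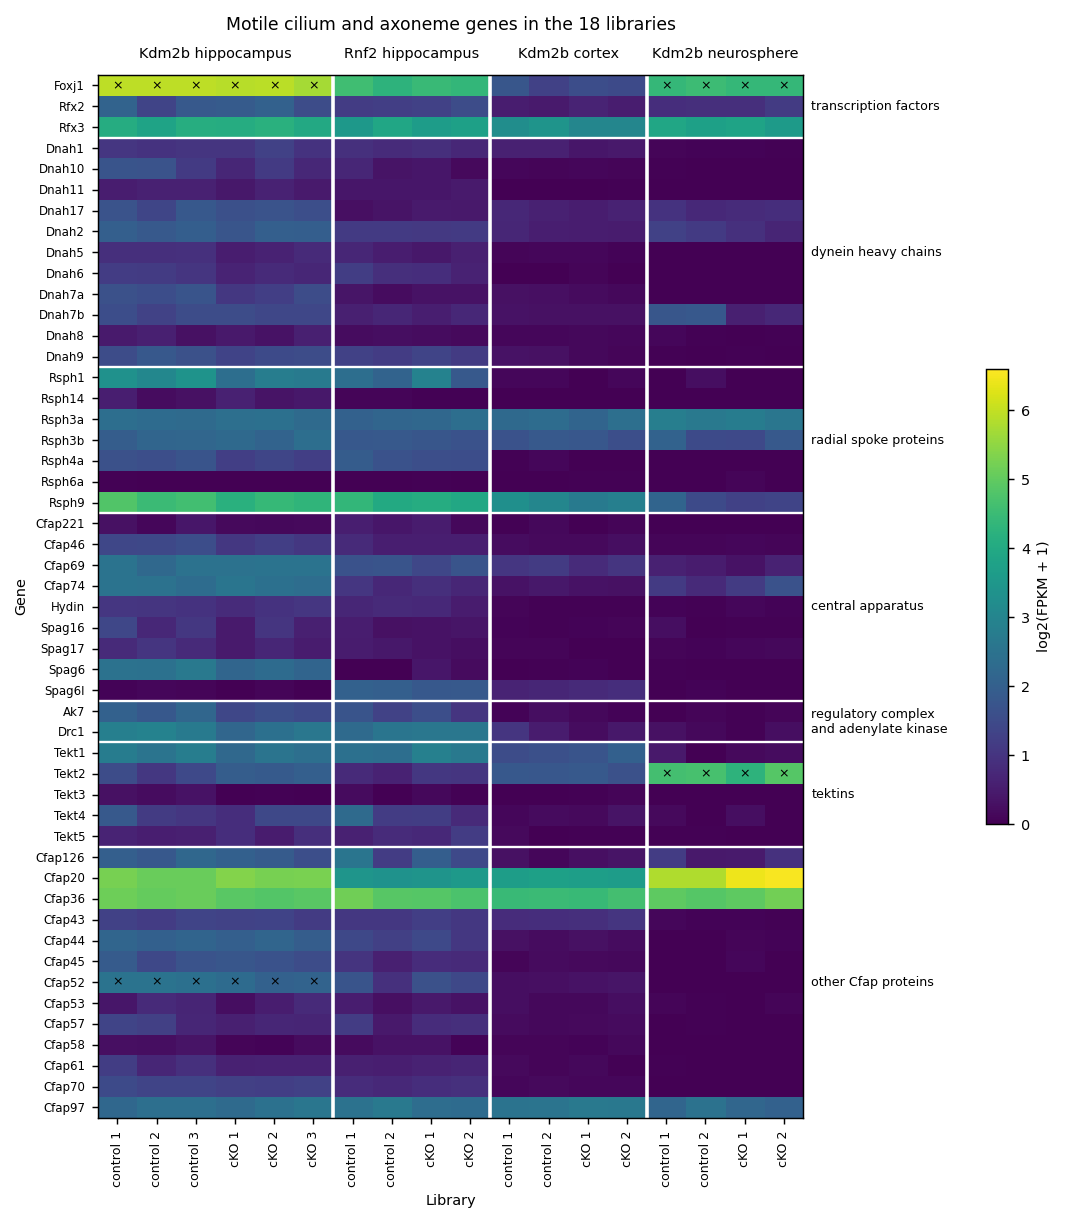
Level of the 50 members named in all 4 tables, as log2(FPKM + 1) in color, with genes in rows by role and the 18 libraries in columns by table. A cross marks an entry that the gene shares with another gene. Most rows are dim on this scale and less dark in the hippocampal libraries than in cortex and neurospheres. Rfx3, Cfap20, Cfap36, Cfap97, Rsph3a and Rsph3b are visible in all 4 tables.

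Control means were higher in the Kdm2b hippocampus than in neurospheres for 44 of the 47 members and higher than in cortex for 45. They were higher in the Rnf2 hippocampus than in cortex for 42, by a median ratio of 5.08 over the 45 members detected in control cortex, while the same ratio over all genes of at least 0.5 FPKM in either had a median of 0.948. Both hippocampal tables lay above both others for 36 members. A control mean of at least 0.5 FPKM was reached by 39 members in the Kdm2b hippocampus, by 32 in the Rnf2 hippocampus, by 15 in cortex and by 13 in neurospheres, and by 8 in all 4. In bulk tissue, fewer cells of a type and less RNA per cell cannot be told apart.

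**Figure D2:**
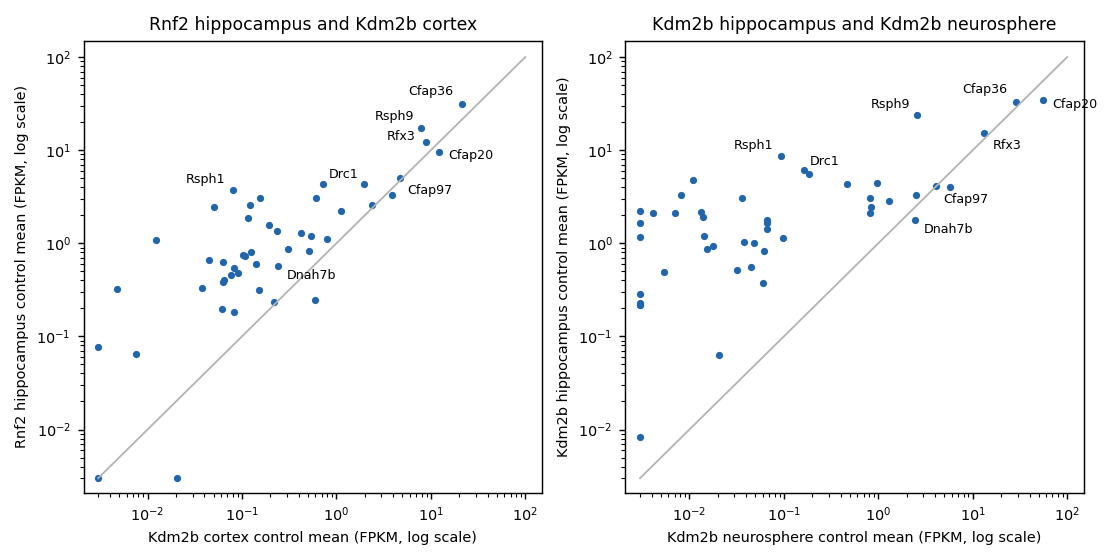
Mean FPKM of 47 members in control libraries on log axes, Rnf2 hippocampus against cortex on the left and Kdm2b hippocampus against neurospheres on the right, with 1 point per gene, values near 0 drawn at the lowest level shown and the line of equality in gray. Of the 47 points, 42 lie above the line on the left and 44 on the right.

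The roles differed in how far they followed this order. Dynein heavy chains had a median control level of 1.77 FPKM in the Kdm2b hippocampus, 0.538 in the Rnf2 hippocampus, 0.219 in cortex and 0.0155 in neurospheres (11 genes). For radial spoke proteins the medians were 3.28, 2.56, 0.0794 and 0.0926 FPKM in the same order (7 genes), and for the central apparatus 1.14, 0.606, 0.0640 and 0.0614 (9 genes). The transcription factor Rfx3 was well expressed throughout, with control means of 15.2 FPKM in the Kdm2b hippocampus, 12.2 in the Rnf2 hippocampus, 8.97 in cortex and 13.2 in neurospheres.

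A few members were abundant everywhere. Cfap36, a binding partner of the small GTPase ARL3, had control means of 33.3 and 31.6 FPKM in the Kdm2b and Rnf2 hippocampus, 21.5 in cortex and 29.1 in neurospheres. Cfap20, a protein of the doublet microtubule, was at 34.2, 9.60, 12.2 and 55.2 FPKM in the same order, and thus highest in neurospheres. The radial spoke protein Rsph9 stood between the patterns, at 24.0, 17.5, 7.93 and 2.59 FPKM. Cfap300 was among the 5 most abundant members in the Rnf2 hippocampus (10.1 FPKM) and in cortex (7.04 FPKM).

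Foxj1 had an entry of its own in the cortical and Rnf2 tables only. It was at 23.0 and 18.3 FPKM in control and at 21.2 and 19.6 in cKO libraries of the Rnf2 hippocampus. In cortex it was at 2.42 and 1.43 FPKM in control and at 1.96 and 1.77 in cKO libraries, so the hippocampal values all lay above the cortical ones. In the other tables Foxj1 shared its entry with Rnf157, a gene that alone was at 15.2 to 22.0 FPKM in cortex and Rnf2 hippocampus, so the 2 cannot be told apart in the Kdm2b hippocampus (60.7 FPKM ± 0.393, SD, n = 3 controls) and in neurospheres (21.1 ± 1.45, SD, n = 2).

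In Kdm2b cKO hippocampi, 5 genes of the motile cilium were called lower and 1 was called higher. Rfx2 and Rfx3 were not called, nor was the entry that Foxj1 shares with Rnf157, in which Foxj1 cannot be read alone. Of the 50 members, 42 had a mean of at least 0.5 FPKM and were tested with limma on log2(FPKM + 1), on which differences between low values come out smaller than their ratio. Calls needed an unadjusted p under 0.05 and a log2 fold change beyond 0.4 in either direction. Dnah10, Rsph1, Ak7, Cfap57 and Drc1 were called lower, 5 of 42 or 11.9%, against 2.25% of the 13446 genes tested. Tekt2 was called higher, 1 of 42, against 3.89% of all genes, but not when its entries were summed. The members tested had a median log2 fold change of -0.13, against 0.01 over all genes, and 31 of the 42 (73.8%) were negative, against 47.8% of all genes. Among all 50 members the cKO mean was below the control mean in 38, and of the 8 not tested it was below in 7. Of the 42, 2 passed the filter with a mean under 0.5 FPKM in 1 of the groups. The median member (of the 47 above) was at 1.36 to 1.63 FPKM in cKO hippocampi, which overlapped the control range.

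All 3 cKO libraries lay below all 3 controls for 16 of the 42 members (38.1%), against 14.3% of the genes tested, and above them for 2 (Tekt2 and Cfap20), against 14.9%. At an adjusted p under 0.05 (Benjamini-Hochberg, over every gene tested) and with no fold change threshold, Rsph1, Ak7 and Cfap36 were lower, 3 of 42, against 3.99% of all genes, and Tekt2 was higher.

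**Figure D3:**
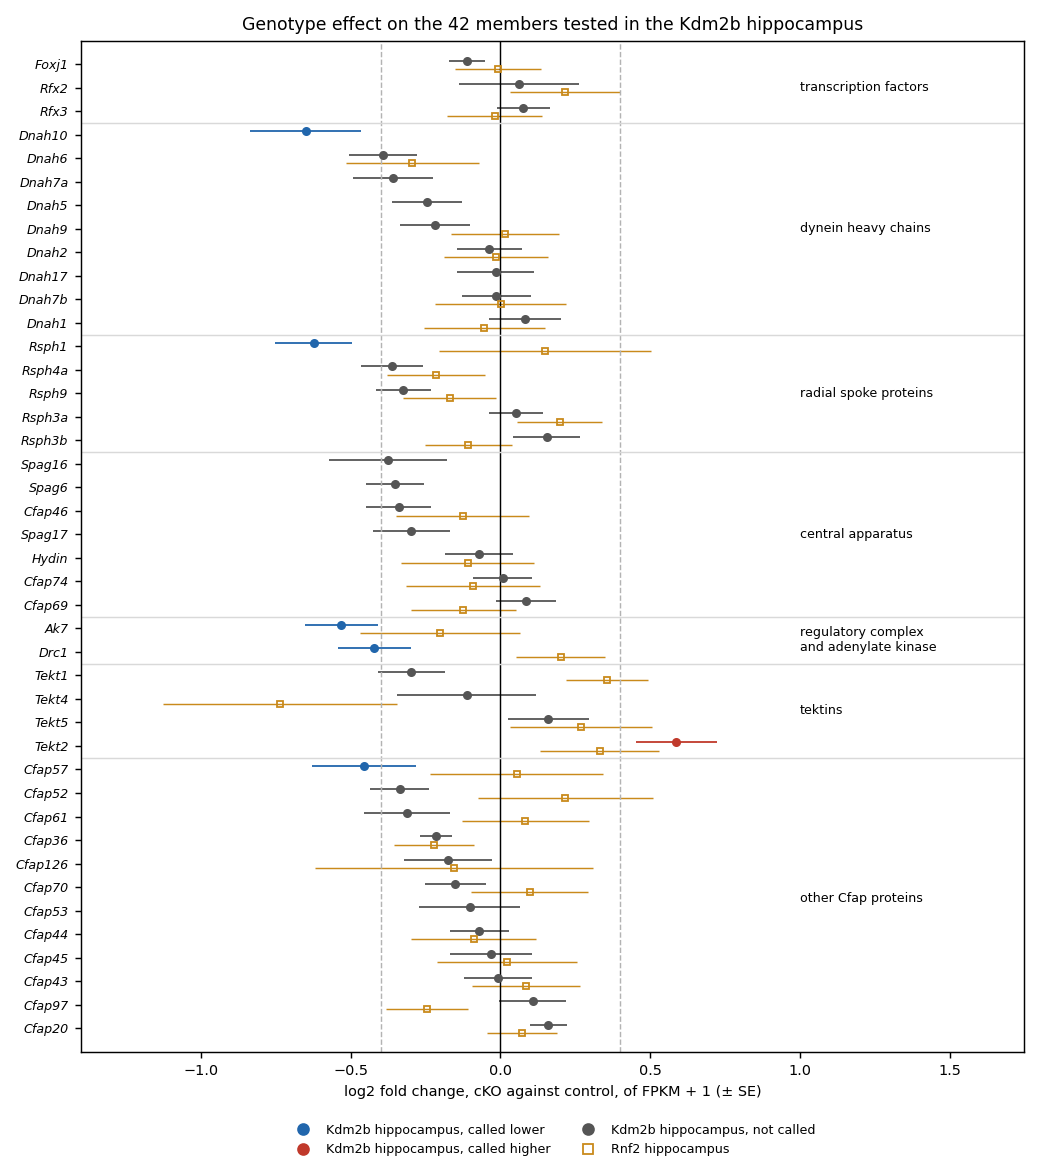
Log2 fold change with its SE for the 42 members tested in the Kdm2b hippocampus (circles; blue called lower, red called higher, gray not called) and for the 34 of them also tested in the Rnf2 hippocampus (squares), by role, with the fold change threshold as dashed lines. In the Kdm2b hippocampus 31 of the 42 circles lie left of 0, and no square was called.

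Of the dynein heavy chains, 9 were tested, 8 had a negative fold change and 1 was called. Dnah10 was at 2.29, 2.22 and 1.18 FPKM in control and at 0.637, 1.19 and 0.671 FPKM in cKO hippocampi, a log2 fold change of -0.65 (SE 0.19, adjusted p = 0.0640). Control library 3 lay just below cKO library 2, so the groups overlapped. Dnah6, another inner arm chain, was at 1.02 to 1.26 FPKM in control and at 0.568 to 0.728 in cKO libraries without overlap, and its log2 fold change of -0.39 stopped just short of the threshold (adjusted p = 0.0653). The outer arm chains Dnah5 and Dnah9 had log2 fold changes of -0.24 and -0.22 and were not called. Dnah7a had -0.36 and Dnah7b -0.01, but these genes are near-identical copies whose reads may be split between them.

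Of the radial spoke proteins, 5 were tested. Rsph1, of the spoke head (ENSMUSG00000024033, chromosome 17, 31255019 to 31277356, GRCm38), was at 9.10, 7.25 and 9.50 FPKM in control and at 4.27, 5.91 and 5.57 FPKM in cKO hippocampi. All cKO values lay below all control values, with a log2 fold change of -0.62 (SE 0.13, adjusted p = 0.0209), the smallest adjusted p of the members. The other spoke head genes Rsph4a and Rsph9 were also lower in every cKO library, with log2 fold changes of -0.36 (adjusted p = 0.0662) and -0.32 (adjusted p = 0.0630) that did not reach the fold change threshold. Rsph3a and Rsph3b, near-identical copies, had 0.05 and 0.15.

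Ak7, an adenylate kinase of cilia, was at 3.17, 2.52 and 3.52 FPKM in control and at 1.65, 2.01 and 1.76 FPKM in cKO hippocampi, without overlap. Its log2 fold change was -0.53 (SE 0.12, adjusted p = 0.0299). Drc1, of the nexin-dynein regulatory complex, was at 6.18, 6.56 and 5.57 FPKM in control and at 3.49, 4.44 and 5.10 FPKM in cKO hippocampi. It too showed no overlap, with a log2 fold change of -0.42 (SE 0.12, adjusted p = 0.0666), and its call was kept in 4 of 6 fits that left out 1 library.

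Of the central apparatus, 7 genes were tested and none was called by limma, while 3 were lower at an unadjusted p under 0.05, as were 11.5% of all genes. These were Spag6 (-0.35, from 4.53 to 5.31 FPKM in control to 3.34 to 3.92 in cKO libraries), Cfap46 (-0.34) and Spag17 (-0.30), each without overlap of the groups. Spag17 is 1 of the 2 members that passed the filter through the controls, with a mean of 0.820 FPKM in control and 0.480 in cKO hippocampi, so its test gives no support of its own. Spag6 and Spag6l are near-identical copies, and the tables differ in which of them holds the reads: Spag6 had a control mean of 4.83 FPKM in the Kdm2b hippocampus, where Spag6l was at 0.0628, while in the Rnf2 hippocampus Spag6l was at 3.06 and Spag6 at 0 in both controls. Hydin, a large protein of the central pair, had -0.07.

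Tekt2 was the one member called higher. Its leading entry was at 1.89, 1.10 and 1.72 FPKM in control and at 2.86, 2.65 and 2.98 FPKM in cKO hippocampi, without overlap, a log2 fold change of 0.59 (SE 0.13, adjusted p = 0.0298). The table has a second Tekt2 entry, and with the entries summed the log2 fold change was -0.093 and Tekt2 was not called. Tekt1 was at 4.81 to 5.95 FPKM in control and 3.73 to 4.85 in cKO libraries, which overlapped (-0.30, SE 0.11, adjusted p = 0.146). Tekt4 and Tekt5 had -0.11 and 0.16.

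Of the other Cfap proteins, 12 were tested. Cfap57 (ENSMUSG00000028730, chromosome 4, 118554551 to 118620777, GRCm38) was at 1.57, 1.39 and 0.632 FPKM in control and at 0.485, 0.642 and 0.593 FPKM in cKO hippocampi, a log2 fold change of -0.46 (SE 0.17, adjusted p = 0.149). Control library 3 lay within the cKO range, and the call was kept in 3 of 6 fits that left out 1 library. Cfap36 was at 34.6, 32.1 and 33.3 FPKM in control and at 29.1, 27.4 and 29.3 FPKM in cKO hippocampi, a log2 fold change of -0.21 (SE 0.053, adjusted p = 0.0396, at most 0.142 with a library left out), under the fold change threshold and without overlap. Cfap52, in an entry shared with Usp43, had -0.34 (adjusted p = 0.0688), and Cfap20 had 0.16 (adjusted p = 0.155).

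The transcription factors were not called in any comparison. The shared Foxj1 and Rnf157 entry was at 61.0, 60.9 and 60.3 FPKM in control and at 58.7, 59.1 and 51.2 FPKM in Kdm2b cKO hippocampi, a log2 fold change of -0.11 (SE 0.060, adjusted p = 0.320). Rfx2 was at 3.31, 1.55 and 2.57 FPKM in control and at 2.74, 3.13 and 1.88 FPKM in cKO hippocampi, a log2 fold change of 0.06 (SE 0.20, adjusted p = 0.898). Rfx3 was at 13.3 to 16.3 FPKM in control and at 14.9 to 17.4 FPKM in cKO hippocampi, a log2 fold change of 0.08 (SE 0.090, adjusted p = 0.671). The groups overlapped for each Rfx factor and were separate for the shared Foxj1 entry.

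**Figure D4:**
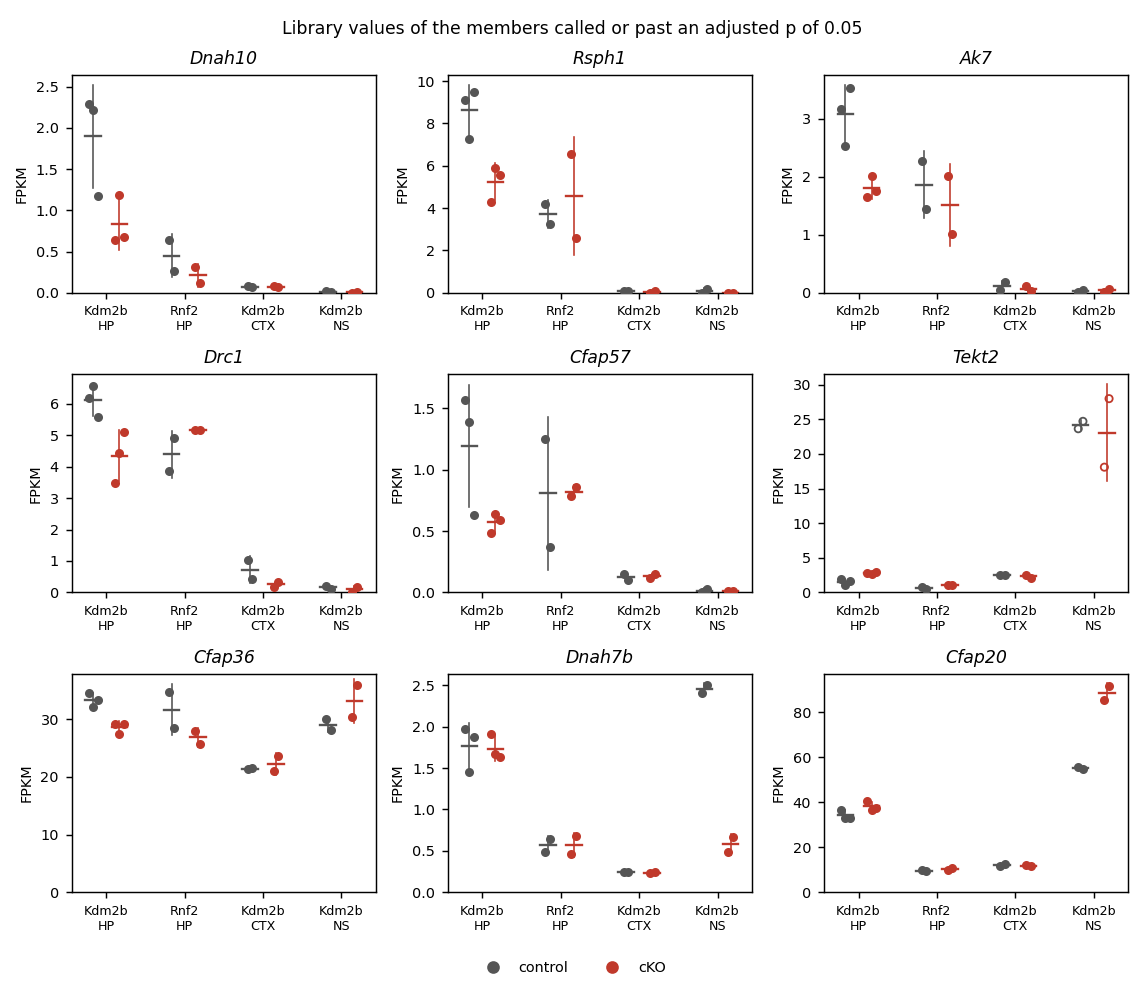
FPKM in every library for the 9 members called or past an adjusted p of 0.05 in any comparison, with controls in gray and cKO in red for the Kdm2b hippocampus (HP), the Rnf2 hippocampus, the Kdm2b cortex (CTX) and the neurospheres (NS); bars give the mean and the SD, and open symbols an entry shared with another gene. Rsph1, Ak7, Drc1 and Cfap36 do not overlap between groups in the Kdm2b hippocampus, and Dnah7b and Cfap20 are farthest apart in neurospheres.

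Some genes of the same structures are listed in the Kdm2b hippocampus under other symbols and were read through RefSeq synonyms. Ccdc108, the name there of Cfap65, was called lower, at 3.49 FPKM ± 0.423 (SD, n = 3) in control and 2.10 ± 0.330 (SD, n = 3) in cKO hippocampi (-0.54, limma adjusted p = 0.0277). 1700026D08Rik, the name of Cfap161, was called lower at -0.48 (adjusted p = 0.0971). Dnaic1 and Dnaic2, the names of Dnai1 and Dnai2, had -0.26 and -0.19 and were not called. With all such genes included, 7 of 55 members were called lower and 1 higher, against the 2.25% and 3.89% of all genes.

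Further genes of motile cilia were taken from 4 lists. Of all genes tested in the Kdm2b hippocampus, 47.8% had a negative fold change, 2.25% were called lower and 3.89% higher. Of 14 further dynein chains, spoke and regulatory complex genes, 13 were tested, 12 had a negative fold change and 4 were called lower, with a list median of -0.26. They were Lrrc48 (also Drc3, -0.58, adjusted p = 0.0355), the inner arm light chain Dnali1 (-0.57, adjusted p = 0.0454), Dynlrb2 (-0.51, adjusted p = 0.142) and Gas2l2 (-0.44, adjusted p = 0.0571). Of 29 other axoneme and ependymal cilium genes, 25 were tested, 19 had a negative fold change and 6 were called lower, with a median of -0.16.

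The largest falls of this list exceeded those of any member. Tmem212, an ependymal marker, was at 2.36, 2.05 and 2.61 FPKM in control and at 0, 0.496 and 0.798 FPKM in cKO hippocampi, a log2 fold change of -1.26 (SE 0.20, adjusted p = 0.00806). Its cKO mean was under 0.5 FPKM, so it passed the filter through the controls and its test gives no support of its own. Ccdc153, another ependymal marker, was at 5.65, 4.20 and 4.95 FPKM in control and at 0.862, 2.38 and 1.67 FPKM in cKO hippocampi, a log2 fold change of -1.20 (SE 0.20, adjusted p = 0.00949). Tctex1d4 (-1.01, adjusted p = 0.0105) and Cdhr3 (-0.73, adjusted p = 0.0338) were also called lower. These 4 genes were named as the largest falls among the called genes of the list. None overlapped between groups, but genes picked for the largest falls would seldom overlap. This gives no support of its own, and the 14.3% of all genes without overlap is no measure for genes so picked.

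Other steps of cilium formation had few calls. Of the 10 multiciliated cell regulators, 8 were tested, 7 had a positive fold change and Ankrd66 was called lower (-0.73, adjusted p = 0.0600), with a list median of 0.11. Of the 16 genes of dynein arm assembly and docking, 13 were tested and none was called by limma (1 at an unadjusted p under 0.05, Dnaaf3), with a median of -0.02. Of the 56 genes of the primary cilium and intraflagellar transport, all were tested, Ift43 was called higher (0.40, adjusted p = 0.0571) and none was called lower, with a median of -0.02. At an adjusted p under 0.05 with no fold change threshold, 2 were lower, against 3.99% of all genes, and 0 were higher. The 2 were the kinesin-2 genes Kif3b (-0.28, adjusted p = 0.0161) and Kifap3 (-0.21, adjusted p = 0.0191).

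The choroid plexus epithelium also bears motile cilia, and its 17 markers summed to 18.9 to 33.6 FPKM in control and to 22.3 to 76.1 in Kdm2b cKO hippocampi. None of the 17 was at 0 in every library, 8 were tested and 4 were called higher, against 3.89% of all genes. The calls were led by Ttr, the transthyretin gene, and no marker passed an adjusted p of 0.05 with limma. Ttr was at 3.96, 3.64 and 14.2 FPKM in control and at 56.0, 37.9 and 5.29 FPKM in cKO hippocampi, so its value in cKO library 3 lay inside the control range. The part of choroid plexus or ventricular lining in the dissected tissue was not tested. Of the 10 neural progenitor markers, 4 were called higher, against 3.89% of all genes. At an adjusted p under 0.05 and with no fold change threshold, 7 were higher. The share of all genes by that rule was not computed, and 11.4% were higher at an unadjusted p under 0.05. Of the 10 neuronal markers, 9 had a negative fold change, against 47.8% of all genes, and 1 was called lower, against 2.25%. With an adjusted p under 0.05 and no fold change threshold, 4 were lower, against 3.99% of all genes. The 10 neuronal markers summed to 2467 to 2532 FPKM in control and 1972 to 2244 in cKO hippocampi, without overlap. The 10 hippocampal markers summed to 245.7 to 285.3 FPKM in control and to 295.3 to 317.4 in cKO hippocampi. The part of these shifts in the member values was not tested. None of the 10 meningeal and vessel markers was called by limma, with 0 at an unadjusted p under 0.05.

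In Rnf2 cKO hippocampi, no member was called by limma, and limma-voom on the recovered reads called 1 lower, Cfap54. Of the 71 members, 46 were tested, against backgrounds of 2.86% of 15764 genes called higher and 1.85% called lower. The median log2 fold change of the members was -0.04, against 0.00 over all genes. Of the 46, 28 were negative, against 50.1% of all genes. With adjusted p values and the fold change threshold, 0.00% of all genes were called in either direction. The lack of calls thus does not show that the members were unchanged. Tekt1 was the one member with an unadjusted p under 0.05, at 4.45 and 4.24 FPKM in control and at 6.34 and 5.37 FPKM in cKO hippocampi, a log2 fold change of 0.36 (SE 0.14, adjusted p = 0.690).

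Rsph1, Ak7, Drc1 and Cfap57, called lower in Kdm2b cKO hippocampi, were tested here and not called. Rsph1 was at 4.19 and 3.26 FPKM in control and at 6.55 and 2.60 FPKM in Rnf2 cKO hippocampi, so the cKO values lay on either side of the controls (0.15, SE 0.35, adjusted p = 0.946). Ak7 was at 2.27 and 1.45 FPKM in control and at 2.01 and 1.01 FPKM in cKO hippocampi (-0.20, SE 0.27, adjusted p = 0.885). Drc1 was at 3.86 and 4.91 FPKM in control and at 5.17 and 5.16 FPKM in cKO hippocampi (0.20, SE 0.15, adjusted p = 0.783), and both cKO values lay above the controls. Cfap57 was at 1.25 and 0.368 FPKM in control and at 0.783 and 0.861 FPKM in cKO hippocampi (0.06, SE 0.29, adjusted p = 0.977). Cfap36 was at 34.8 and 28.5 FPKM in control and at 28.1 and 25.7 FPKM in cKO hippocampi (-0.22, SE 0.13, adjusted p = 0.762), lower in both cKO libraries and not called. Dnah10 had a mean under 0.5 FPKM and was not tested, with 154 and 66 reads in control and 82 and 30 in cKO libraries.

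The libraries of this table differed in choroid plexus RNA. Ttr was at 47.5 and 11.5 FPKM in control and at 232.7 and 6.19 FPKM in Rnf2 cKO hippocampi, and Rsph1 and Ak7 were higher in the Ttr-rich library of each group, while Drc1 was lower in the Ttr-rich control and about equal in the cKO libraries. The 17 choroid plexus markers summed to 22.0 to 65.0 FPKM in control and to 17.2 to 261.8 in cKO libraries, 9 were tested and none was called by limma, with 0 at an unadjusted p under 0.05. Ccdc153 was at 2.26 and 0.347 FPKM in control and at 0.357 and 0 FPKM in cKO hippocampi (-0.85, SE 0.45, adjusted p = 0.737). Meningeal and vessel genes were called lower in 4 of 10, against 1.85% of all genes. The part of these tissues in the member values was not tested.

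The difference of the 2 genotype effects was tested directly in 32 members with entries of their own and a mean of at least 0.5 FPKM in both hippocampal tables. None passed an adjusted p of 0.05 with limma, against 0.683% of 11266 genes. An unadjusted p under 0.05, for which the share of all genes was not computed, was reached by 3. These were Tekt1 (Kdm2b minus Rnf2 -0.65, SE 0.17, adjusted p = 0.103), Drc1 (-0.62, SE 0.19, adjusted p = 0.153) and Rsph1 (-0.77, SE 0.35, adjusted p = 0.317). A difference between the Kdm2b and Rnf2 effects was thus not shown for any member, which does not show that the effects were alike.

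In Kdm2b cKO cortices, no member was called by limma either, and limma-voom on the recovered reads called 1 lower, Rsph9. Of 71 members, 19 were tested, against backgrounds of 4.73% of 15691 genes called higher and 2.28% called lower, and 52 had a mean under 0.5 FPKM. The median log2 fold change of the members was -0.07, against -0.01 over all genes. Rsph9 was at 8.70 and 7.17 FPKM in control and at 5.56 and 6.14 FPKM in cKO cortices, without overlap (-0.38, SE 0.11, adjusted p = 0.286), and Rfx3 was at 8.36 and 9.58 FPKM in control and at 7.16 and 7.13 in cKO cortices (-0.29, SE 0.091, adjusted p = 0.302). These were the members with an unadjusted p under 0.05, 2 of 19 and each lower, against 5.10% of all genes lower at that p. Foxj1 had -0.01 (SE 0.19, adjusted p = 0.988).

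Most of the axonemal genes called in the hippocampus could not be assessed in cortex, where Rsph1 had a control mean of 0.0794 FPKM, Dnah10 of 0.0761 and Ak7 of 0.116. Drc1 was at 1.03 and 0.421 FPKM in control and at 0.171 and 0.339 FPKM in cKO cortices and missed the filter. Meningeal and vessel genes were called higher in 7 of 10 in cKO cortices, against 4.73% of all genes. They had a summed level of 35.8 to 37.0 FPKM in control and 74.5 to 89.6 in cKO libraries. Their part in the cortical member values was not tested. In the direct test of the difference between hippocampus and cortex, none of 12 members passed an adjusted p of 0.05 with limma, against 1.61% of 10708 genes. An unadjusted p under 0.05 was reached by 5, and the share of all genes at that threshold was not computed. These were Cfap20, Cfap36, Rfx3, Tekt1 and Tekt2, of which Tekt1 differed by -0.60 (SE 0.18, adjusted p = 0.155) and Tekt2 rests on its leading entry in the hippocampus.

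In Kdm2b cKO neurospheres, which expressed few motile cilium genes, 1 member was called lower and 1 higher. Of the 50 members, 15 were tested, 35 had a mean under 0.5 FPKM and 6 of those were listed at 0 in every library. The calls, 1 of 15 in each direction, compare with 13.2% of 12227 genes called lower and 11.4% called higher. The median log2 fold change of the members was -0.10, against -0.01 over all genes.

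Dnah7b was at 2.41 and 2.50 FPKM in control and at 0.487 and 0.667 FPKM in cKO neurospheres, without overlap, a log2 fold change of -1.13 (SE 0.16, adjusted p = 0.00718). Its near-identical copy Dnah7a was at 0.00831 FPKM or below in every neurosphere library. Cfap20 was at 55.6 and 54.8 FPKM in control and at 85.7 and 91.7 FPKM in cKO neurospheres, without overlap, a log2 fold change of 0.67 (SE 0.082, adjusted p = 0.00475). Both calls were kept in 4 of 4 fits that left out 1 library, with adjusted p values of up to 0.0740 for Dnah7b and 0.0762 for Cfap20.

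Of the genes called lower in cKO hippocampi, Rsph1, Ak7 and Dnah10 were near 0 in neurospheres. Rsph1 was at 0 and 0.185 FPKM in control and at 0 in both cKO neurospheres, Ak7 was at 0.0608 FPKM or below and Dnah10 at 0.0198 or below. Ccdc37, the older name of Cfap100, was called lower (-0.98, limma adjusted p = 0.0124), from 6.70 FPKM ± 0.186 (SD, n = 2) in control to 2.96 ± 0.827 (SD, n = 2) in cKO neurospheres. In the 4 other motile cilium lists, 5 multiciliated cell regulators, 5 assembly and docking genes, 4 dynein, spoke and regulatory complex genes and 9 axoneme and ependymal genes were tested. Among them, 4 genes were called higher and 2 lower, against the 11.4% and 13.2% of all genes. The counts are small, and a difference from these shares was not tested. Myb (0.88, adjusted p = 0.0172) and Trp73 (0.78, adjusted p = 0.0330), regulators of multiciliated cells, were called higher, as was Mns1 (0.82, adjusted p = 0.00739). The assembly gene Dnaaf2 was called higher in an entry shared with the ribosomal gene Rpl36al (0.43, adjusted p = 0.0667), and Ccdc39, which also acts in arm assembly, was called lower (-0.68, adjusted p = 0.0474).

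The genotype effect differed between hippocampus and neurospheres for 3 of 13 members at an adjusted p of 0.05, against 27.0% of 10606 genes. Dnah7b had a log2 fold change of -0.01 in hippocampi and -1.13 in neurospheres (difference 1.12, SE 0.18, adjusted p = 0.00122). Cfap20 had 0.16 and 0.67 (difference -0.51, SE 0.098, adjusted p = 0.00328), and Cfap36 had -0.21 and 0.18 (difference -0.40, SE 0.11, adjusted p = 0.0196). The share of members was near that of all genes, and 3 members passed also without neurosphere control library 1.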

How the data were processed

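RNA-seq of 18 libraries was analysed, grouped by their deposited labels. For the Kdm2b hippocampus and the neurospheres, poly(A) RNA was sequenced, and the authors removed adapters with cutadapt, mapped to mm10 (GRCm38) by STAR and derived FPKM with Cufflinks 2.2.1, per the methods and the submitters' processing notes. The cortical and Rnf2 tables hold FPKM deposited by the authors per Ensembl gene with a gene length, and how they were made is not given in the sources used here. Whether counting used strand is not stated, so antisense transcripts and their partners cannot be told apart. FPKM times length came out whole, within 0.05 of a read, for 100% of values under 200 reads in these 2 tables, which gave the depth of each library. Intervals for counting error were not computed.

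Entries without a gene name were dropped, and the entry of highest mean was kept for each name. Values were taken to log2(FPKM + 1), with a pseudocount of 1, and genes averaging 0.5 FPKM or more were fitted with limma 3.58.1 in R 4.3.3 (lmFit, eBayes with a trend), each comparison in its own table, two-sided, with Benjamini-Hochberg adjustment over all genes tested. The thresholds, 0.4 for the log2 fold change and 0.05 for p, are those of the study, whose test needs counts, not analysed here. Differences between comparisons were formed within each table and fitted in 1 model. The fits were tested on simulated data.

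Named with values were the transcription factors, every member called or past an adjusted p of 0.05, the 5 most abundant members of each table, the targeted genes and up to 4 called genes per list. Other members are named to show counts, copies or neighbors of the threshold. The members and lists were chosen with earlier results of these data known. The alternatives were another pseudocount, filter and scaling, no trend, a block for the replicate number, each library left out, calls by adjusted p or without a fold change threshold, summed entries and limma-voom on the recovered reads, and, chosen after seeing the data, genes under other symbols and a crossed block.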

Additional observations from a re-analysis of the deposited data

Results flagged for a closer look

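Of 13 members tested, 3 responded to the loss of the KDM2B CxxC domain differently in hippocampi and in neurospheres. Dnah7b had a log2 fold change that was higher in hippocampi by 1.12, Cfap20 had one that differed by -0.51 (hippocampi minus neurospheres), and Cfap36 had one that differed by -0.40. Each difference passed an adjusted p of 0.05 in the joint limma fit, as did 27.0% of all genes in that test. Neurospheres differ from dissected hippocampi in cell makeup and culture as well as in table, and these cannot be told apart.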

How the results depend on the processing

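In Kdm2b cKO hippocampi, 5 members were called lower. The count was 2 with adjusted p values (1.47% of all genes), 15 with no fold change threshold (11.5%), 12 with a pseudocount of 0.1 (3.04%), and 4 to 9 with each library left out, reaching 9 without cKO library 2 (2.31%). Rsph1, Ak7 and Dnah10 kept their call in all 6 of these fits. The 1 call of a higher member became 2 with no fold change threshold and 0 with summed entries, where Tekt2 turned to -0.093, since its second entry is above 0 in controls alone. With each library left out it was 1 in all fits. In neurospheres, the 1 lower call became 2 with genes under other symbols included, and with each library left out lower and higher calls were each 1 to 2 (2 lower without cKO library 1 or control library 2, and 2 higher without cKO library 1). In cortex, 0 lower calls became 1 with a pseudocount of 0.1, the same FPKM total or limma-voom on recovered reads (Rsph9 in each) and 2 with no fold change threshold, and with each library left out lower and higher calls were each 0 to 1 (1 lower without control library 2, and 1 higher without cKO library 1). In the Rnf2 hippocampus, 0 higher calls became 1 with a pseudocount of 0.1 or no fold change threshold (Tekt1), and 0 lower calls became 1 with no trend (Rsph10b) or limma-voom (Cfap54), while leaving out each library gave 0 to 1 higher calls (1 without cKO library 2 or control library 1) and 0 to 3 lower calls (3 without control library 2). A group left with 1 library is assumed to vary like the others. Causes were not tested. Against neurospheres, 2 to 4 members passed the test of the difference with each library left out.

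The labels do not say whether the replicate numbers pair the libraries, and correlations between so few libraries cannot show it either way. Deviations of same-numbered libraries correlated at -0.10 to 0.05 in the Kdm2b hippocampus, at -0.28 in neurospheres, at -0.05 in cortex and at 0.16 in the Rnf2 hippocampus. With the replicate number as a block, 5 members were called lower and 1 higher in the Kdm2b hippocampus, 1 and 1 in neurospheres, 0 and 0 in cortex, and 1 (Tekt4) and 0 in the Rnf2 hippocampus. With the numbers crossed in neurospheres the calls were again 1 and 1. FPKM without counts leave the depth behind the Kdm2b hippocampal values unknown, and most members lie at a few FPKM or below, where the chosen pseudocount sets how many pass the fold change threshold.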

Other observations

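Genes of the primary cilium, which lacks the motile machinery, were tested in full in every table, and few were called in tissue. In Rnf2 cKO hippocampi, 2 of 56 were called higher, against 2.86% of all genes. These were Arl3 (a log2 fold change of 0.55, limma adjusted p = 0.533) and Ift43 (0.52, limma adjusted p = 0.679). None of 56 was called by limma in Kdm2b cKO cortices, with 0 at an unadjusted p under 0.05. In neurospheres, 4 of 56 were called higher and 6 lower, shares below the 11.4% and 13.2% of all genes, with a list median of -0.06. Ift27 (0.68, limma adjusted p = 0.0360) and an entry that Bbs7 shares with the cyclin gene Ccna2 (1.13, limma adjusted p = 0.00155) were among the higher ones, and the transition zone genes Cc2d2a (-0.55, limma adjusted p = 0.0128) and B9d1 (-0.51, limma adjusted p = 0.0281) among the lower ones. The 4 other motile cilium lists had no call by limma in cortex, with 0 at an unadjusted p under 0.05, or in the Rnf2 hippocampus, with 2 (Trp73 and Gas8, both higher). There, 12 of 13 tested dynein, spoke and regulatory complex genes had a negative fold change, with a list median of -0.19. So had 19 of 23 tested axoneme and ependymal genes, with a list median of -0.13, against 50.1% of all genes.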
